A study of Mus musculus with 2 samples.

Results

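A set of 10 fat cell genes was followed in long-read RNA libraries of the mouse adrenal gland: Fabp4, Car3, Lpl, Cidec, Plin1, Plin4, Adipoq, Cfd, Pparg and Retn. They are 10 of the 18179 annotated genes with at least 1 read, and they were chosen by name after their levels in these same libraries had been seen, so that their levels are given as a description and were not tested against other genes. The series holds 2 libraries, called replicate 1 and replicate 2 as in the labels, and both belong to 1 group: adrenal gland of female B6CASTF1/J mice aged 10 days, the F1 offspring of a C57BL/6J by CAST cross. No treatment, mutation, second tissue or second age is given, so no comparison between conditions could be made. The text for both libraries names animal 03, whereas the text for the tissues names animal 03 for replicate 1 and animal 04 for replicate 2. Whether the spread between libraries includes a difference between animals therefore cannot be told.

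White and brown fat cells store triglyceride in lipid droplets. Lipoprotein lipase, the product of Lpl, releases fatty acids from circulating lipoproteins, Fabp4 carries them within the cell, and perilipins coat the droplet and control the access of lipases to it. Cidec joins droplets into larger ones. Fat cells also secrete hormones, the adipokines, and Pparg is the nuclear receptor without which fat cells do not form. The adrenal gland lies in a fat depot that in young mice is rich in brown fat cells. In bulk tissue the number of fat cells and the amount of RNA per fat cell cannot be told apart.

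After removal of ERCC spike-in reads, 593165 reads remained in replicate 1 and 772154 in replicate 2, and each read was counted on 1 transcript model. Levels are counts divided by these totals, on the usual CPM scale. At this depth a count of 0 allows up to 5.06 CPM (replicate 1) or 3.89 CPM (replicate 2), the value of 3 counts. The tissue label was checked against marker lists. All 9 adrenal cortex and all 8 adrenal medulla markers were detected, which means 5 reads or more per library. The 9 cortex markers summed to 17258 CPM (replicate 1) and 21206 CPM (replicate 2). The 8 medulla markers summed to 4945 and 5482 CPM. RNA of other tissues was present and unequal between the libraries: 8 liver markers summed to 8099 CPM in replicate 1 but 1304 in replicate 2, 12 skeletal muscle markers to 11735 and 4339 CPM, and 8 kidney markers to 0 and 671 CPM. The label of fat cell genes was checked in the same way. Of 11 brown adipocyte markers, 9 were detected, with Cidea (3633 CPM on average), Ucp1 (2605 CPM) and Cox8b (2533 CPM) highest, whereas of 12 white adipocyte markers 7 were detected and Lep, the leptin gene, was read only 2 and 3 times (replicates 1 and 2).

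The 10 genes together reached 10100 CPM (replicate 1) and 12583 CPM (replicate 2). Fabp4, the fatty acid carrier, had 1950 reads in replicate 1, against 4473 in replicate 2, or 3287 and 5793 CPM (mean 4540.2 ± 1772, SD, n = 2). Its mean ranks 4 among all genes. Car3, a cytosolic carbonic anhydrase abundant in fat, liver and slow muscle, had 2534 and 3063 reads, or 4272 and 3967 CPM (4119 ± 216), rank 7. Lpl had 605 and 795 reads, or 1020 and 1030 CPM. Of these 3, Fabp4 was the lower in replicate 1 by a wide margin, whereas Lpl was nearly equal in both.

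Among the droplet proteins, Cidec had 244 and 359 reads (411 and 465 CPM) and Plin1, the perilipin that guards the droplets of fat cells, had 223 and 295 reads (376 and 382 CPM). Plin4, a perilipin of small droplets in white fat and muscle, had only 13 reads in replicate 1 and 5 in replicate 2 (21.9 and 6.48 CPM). Among the secreted proteins, the hormone adiponectin (Adipoq) had 181 and 324 reads (305 and 420 CPM). The serine protease adipsin (Cfd), also known as complement factor D, had 180 and 313 reads (303 and 405 CPM). Resistin (Retn) stood near the limit of detection with 6 and 8 reads (10.1 and 10.4 CPM). Pparg, the regulator, had 55 and 81 reads (92.7 and 105 CPM).

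**Figure D1:**
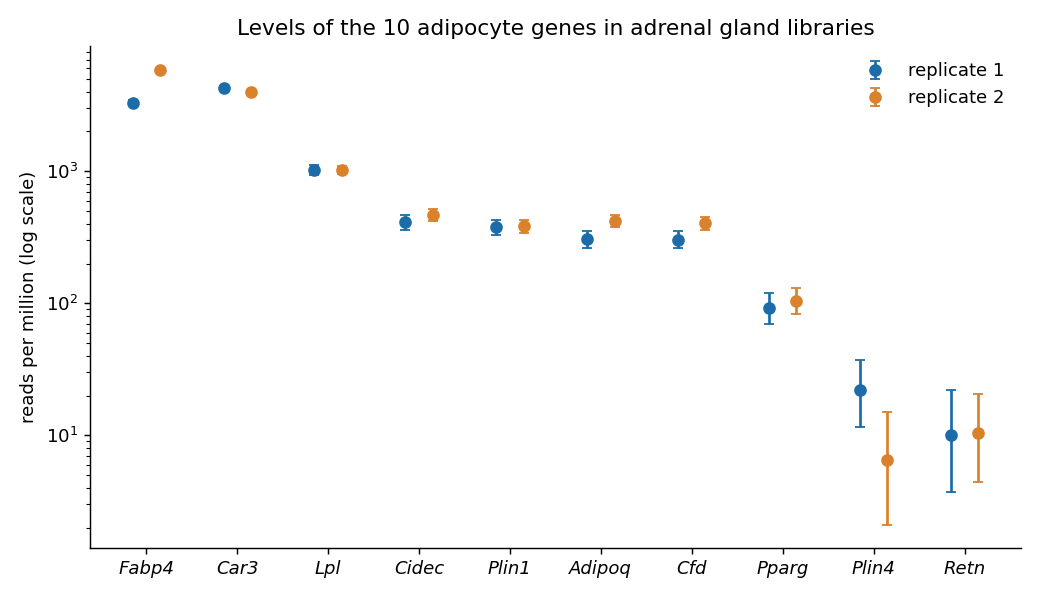
CPM of each of the 10 genes on a log axis; each point is 1 library (replicate 1 left, replicate 2 right) and bars are exact 95% Poisson intervals, which cover counting error only. Fabp4 is the gene whose points lie farthest apart relative to their bars, at 3287 and 5793 CPM, and the intervals of Plin4 and Retn overlap between libraries.

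For a comparison between genes the CPM of each gene was divided by the read-weighted mean length of its models in kilobases, which ran from 726 bases for Fabp4 to 3794 bases for Lpl. On this per-length scale Fabp4 came first with 6252 ± 2439 CPM per kb and Car3 second with 2468 ± 129 CPM per kb. Their values on it did not overlap between libraries. By CPM they did: Car3 was above Fabp4 in replicate 1 (4272 and 3287 CPM) and below it in replicate 2 (3967 and 5793 CPM). The mean length of Fabp4 is lowered by its models that lack 5′ exons, described below. Cidec (419 in replicate 1 and 474 in replicate 2) and Cfd (343 and 458) followed with overlapping values. Adipoq (245 and 337 CPM per kb) and Lpl (269 and 271) also overlapped. Plin1 (181 and 184 CPM per kb), Pparg (51.1 and 57.8), Retn (13.0 and 13.3) and Plin4 (10.7 and 3.17) came last, without overlap between neighbours, although Retn and Plin4 rest on 18 reads or fewer. Long reads are counted once whatever their length, so that CPM gives an order of its own: on the CPM scale Lpl takes place 3 and Cidec place 4, against places 6 and 3 per kb.

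Between the libraries, 8 of the 10 genes had a lower CPM in replicate 1 than in replicate 2, and Car3 and Plin4 had a higher one. None of the 10 met both criteria applied to all genes, a 2-fold ratio and an adjusted p below 0.05 (exact binomial test, two-sided), which 366 of 10567 genes did (3.46%). Without the fold criterion 3 of the 10 passed, beside 717 of the 10567 genes (6.79%). Fabp4 was at 0.57 times its replicate 2 level in replicate 1 (95% interval 0.54 to 0.60, exact binomial test, adjusted p = 8.13e-100). The ratio was 0.73 for Adipoq (0.60 to 0.87, exact test, adjusted p = 0.0125) and 0.75 for Cfd (0.62 to 0.90, exact test, adjusted p = 0.0333). At an unadjusted p under 0.05 the exact test also listed Car3 and Plin4, 5 genes in all, beside 1690 of the 10567 genes (16.0%). With edgeR's negative binomial exact test, which allows for spread beyond counting error, that threshold listed 0 of the 10 (smallest adjusted p = 1) and 445 of all genes (4.21%).

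Lpl, Plin1 and Retn were close to equal, with ratios of 0.99 (0.89 to 1.10), 0.98 (0.82 to 1.18) and 0.98 (0.28 to 3.21). The interval of Retn is wide because it rests on 14 reads. Car3 had a ratio of 1.08 (1.02 to 1.14), Cidec 0.88 (0.75 to 1.04) and Pparg 0.88 (0.62 to 1.26). Plin4 had the largest ratio, 3.38, with an interval of 1.13 to 12.1 (exact binomial test, adjusted p = 0.209). The median log2 ratio was -0.10 over the 10 genes and 0.04 over all genes tested. These tests compare the reads of 2 libraries and no conditions. The dispersion of the negative binomial test was estimated from the same 2 libraries that it compared. Their difference thus enters it, and a gene that it did not list cannot be called equal in both. Of 11 brown adipocyte markers 9 had a lower CPM in replicate 1, and their sum was 9615 CPM there, against 13412 CPM in replicate 2. Of these 11, 9 had enough reads to be tested and 0 met both criteria. The 12 white adipocyte markers summed to 868 and 749 CPM, with 1 higher and 2 lower in replicate 1 by both criteria. Of the cortex markers 8 of 9 were lower in replicate 1, whereas the liver and muscle lists had higher sums in replicate 1, as given above, and the part of any of these in the ratios of Fabp4 and of Car3, which liver and muscle also express, was not tested.

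Most Fabp4 reads lay on models that lack the first exon, and the reason was not tested. Fabp4 (ENSMUSG00000062515.3, mm10 chromosome 3, 10204088 to 10208576, minus strand) has 4 exons in its protein-coding transcript Fabp4-201, and the start codon lies in exon 1. The full chain of 3 introns was held by 308 of 1950 reads in replicate 1 (15.8%, exact 95% interval 14.2 to 17.5) and 711 of 4473 in replicate 2 (15.9%, 14.8 to 17.0). The commonest model held exons 3 and 4 alone, with 1165 reads (59.7%) and 2773 reads (62.0%), and the next held exons 2 to 4, with 332 and 812 reads. Both libraries gave the same steps: intron 1 was present in 18.1 and 16.8% as many reads as intron 3, and intron 2 in 36.8 and 36.1% as many.

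Spliced models that lack 5′ exons took a mean of 78.9% of Fabp4 reads, against a median of 4.00% over the 2162 genes with 50 or more reads in each library, of which 10 had a higher share. No other of the 10 genes came near this value. Among those with 50 or more reads in each library the next was Cidec at 11.5%. Plin4, below that limit, had 2 of 13 reads in replicate 1 and 1 of 5 in replicate 2 on such models. Car3, which is as abundant and has 6 introns, had its first intron in 98.1 and 98.7% as many reads as its last. Lpl, with 9 introns and the longest models, had 93.9 and 96.4%. Counted on annotated models alone, Fabp4 had a mean of 820.2 CPM. The annotated retained-intron transcript Fabp4-202, a single exon that spans the gene, had 72 reads in replicate 1 (3.69%) and 61 in replicate 2 (1.36%). Over all Fabp4 reads the share of Fabp4-201 differed by -0.10 points, replicate 1 minus replicate 2 (two-sided Fisher's exact test, unadjusted p = 0.94). Among annotated models alone it was 11.0 points lower in replicate 1 (two-sided Fisher's exact test, adjusted p = 9.91e-05), a difference that 3 of 1547 genes met by adjusted p and 10 points (0.194%). That second difference turns on the reads of Fabp4-202, the other annotated model. Whether single reads on Fabp4-202 hold intron sequence was not analysed here.

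**Figure D2:**
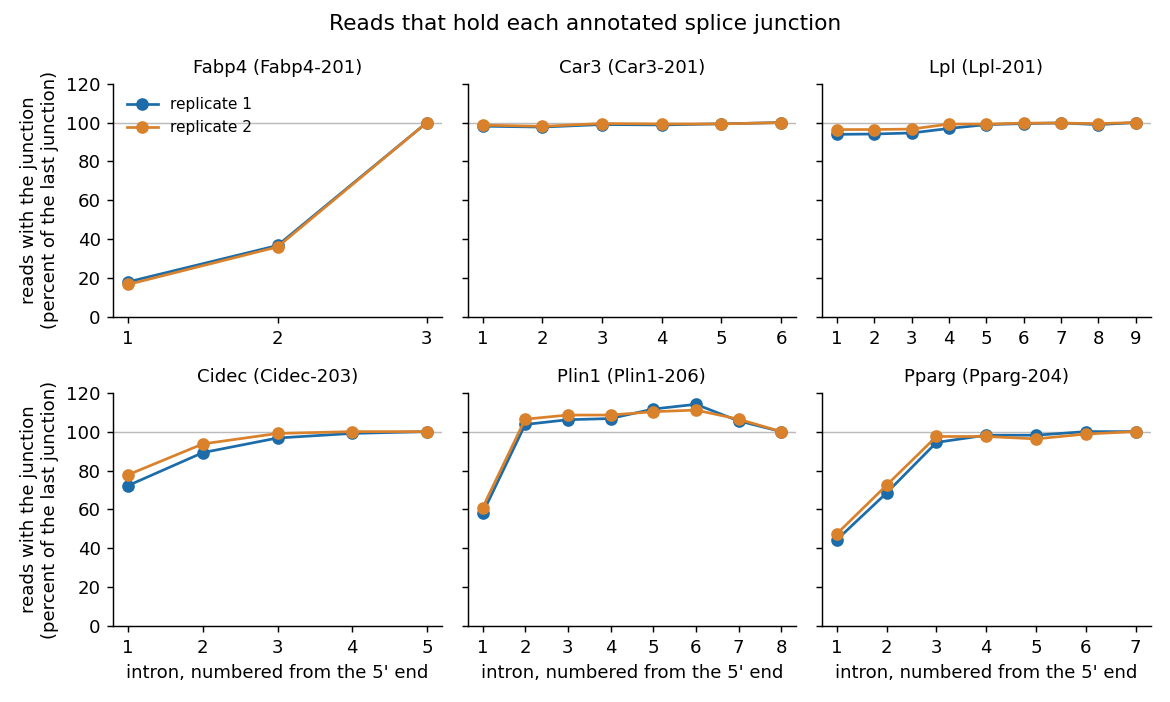
Reads that hold each annotated intron of 6 genes, as a percentage of the reads that hold the last intron, against intron number from the 5′ end; each line is 1 library. Car3 and Lpl are flat at 93.9% or more, whereas Fabp4 steps down to 18.1 and 16.8% at intron 1, and Cidec, Plin1 and Pparg are lower at their first introns, for which the annotation has alternative first exons or, in Plin1, alternative donors of the first exon.

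In some models Fabp4 exon 3 ended 3 bases upstream of its annotated donor site. This end was held by 51 of 1871 reads with this intron in replicate 1 (2.73%, 2.04 to 3.57) and 83 of 4405 in replicate 2 (1.88%, 1.50 to 2.33), and no annotated Fabp4 transcript has it. The sequences below, from the GENCODE M21 transcripts, show the place. The first runs from exon 3 into intron 3 (mm10 chr3:10205217-10205267, minus strand), and the other pair shows the exon 3 to exon 4 junction of each form, with the 3 bases that the upstream donor leaves out in capitals. The letters gt follow both donors, and the 3 bases repeat the 3 before them. The junction sequence alone therefore cannot tell use of the upstream donor from loss of 1 repeat.
Fabp4 exon 3 end and intron 3: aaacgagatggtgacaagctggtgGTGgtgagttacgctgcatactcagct
Fabp4-201 junction: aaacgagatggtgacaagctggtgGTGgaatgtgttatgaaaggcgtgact
Fabp4 unannotated junction: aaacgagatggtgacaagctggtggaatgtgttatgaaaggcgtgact

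Car3 (ENSMUSG00000027559.5, chromosome 3, 14863512 to 14872523, plus strand) lies 4.65 Mb from Fabp4 and was nearly uniform. Its 7-exon coding transcript Car3-201 took 2357 of 2534 reads in replicate 1 (93.0%) and 2894 of 3063 in replicate 2 (94.5%), above the median main transcript share of 79.1% over the 2162 genes. Over both libraries 51 spliced Car3 models were seen. The commonest with an unannotated splice site inserted a 48-base exon in intron 2 (chromosome 3, 14865097 to 14865144), a length of 16 codons. It was held by 17 of 2422 reads in replicate 1 (0.70%) and 22 of 2962 in replicate 2 (0.74%). The 2-exon annotated transcript Car3-202 had 16 and 13 reads.

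Lpl (ENSMUSG00000015568.16, chromosome 8, 68880491 to 68907448, plus strand) was represented by the 10-exon transcript Lpl-201 in 512 of 605 reads in replicate 1 (84.6%, 81.5 to 87.4) and 700 of 795 in replicate 2 (88.1%, 85.6 to 90.2). No other spliced Lpl model reached 5% of its reads. Of the unannotated models that splice into the last exon and have no further intron in it, those with 47 of 47 reads in replicate 1 and 40 of 42 in replicate 2 ended at 68905010 or 68905012, inside the last exon, against an annotated end of 68906934. Models with a further intron within the last exon held 1 read of replicate 1 and 10 of replicate 2 and ended between 68905012 and 68906934. The tables give 1 end per model, so that the ends of single reads and of reads on Lpl-201 were not analysed here.

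Cidec (ENSMUSG00000030278.11, chromosome 6, 113424634 to 113435760, minus strand) was read mostly from its downstream first exon. The annotated transcript Cidec-203 begins at 113434764 and encodes 249 codons without the stop. Cidec-201 and Cidec-202 begin upstream, Cidec-202 by 996 bases, and encode 239, because their coding sequence starts in the second exon. Cidec-203 held 142 reads of replicate 1 and 233 of replicate 2, Cidec-202 had 16 and 24, and Cidec-201 had 5 and 17. Counting every spliced model that holds one or the other first exon, the downstream one was used in 154 of 176 reads in replicate 1 (87.5%, 81.7 to 92.0) and 246 of 289 in replicate 2 (85.1%, 80.5 to 89.0). A model without either exon, from exon 2 to the last with the exon start of Cidec-204, had 21 and 18 reads. The coding starts below (mm10 chr6:113434458-113434734, minus strand) differ by 30 bases, in capitals, which only the longer form carries before the start codon that both share.
Cidec-203: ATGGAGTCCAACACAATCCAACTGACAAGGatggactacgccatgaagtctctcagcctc
Cidec-202: atggactacgccatgaagtctctcagcctc

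Plin1 (ENSMUSG00000030546.14, chromosome 7, 79720218 to 79732903, minus strand) had 3 annotated transcripts that share 1 coding sequence of 517 codons and differ outside it. Plin1-206 held 84 reads of replicate 1 and 129 of replicate 2, Plin1-201 had 29 and 59, and Plin1-202, which lacks the first exon, had 21 and 22. Plin1-206 was the main transcript in 37.7% (31.3 to 44.4) and 43.7% (38.0 to 49.6) of reads. Where the first exon was spliced at one of its 2 annotated donors, the donor of Plin1-206 took 96 of 139 reads in replicate 1 (69.1%) and 146 of 216 in replicate 2 (67.6%). Incomplete splice matches, models whose introns are a contiguous part of an annotated chain, took 31.4 and 20.0% of Plin1 reads, and 193 of the 2162 genes had a higher mean share.

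Plin4 (ENSMUSG00000002831.13, chromosome 17, 56100591 to 56109803, minus strand) had 0 reads on an annotated transcript in either library. Of its 13 reads in replicate 1, 10 lay on a single-exon genomic model, 2 on models that match the 3′ exons and 1 on a model with an unannotated splice site. Of its 5 reads in replicate 2, 3 were genomic, 1 matched the 3′ exons and 1 joined annotated splice sites in an unannotated combination over 8 exons. Spliced Plin4 RNA therefore rests on 3 and 2 reads, fewer than the 5 reads in each library that count as detection.

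**Figure D3:**
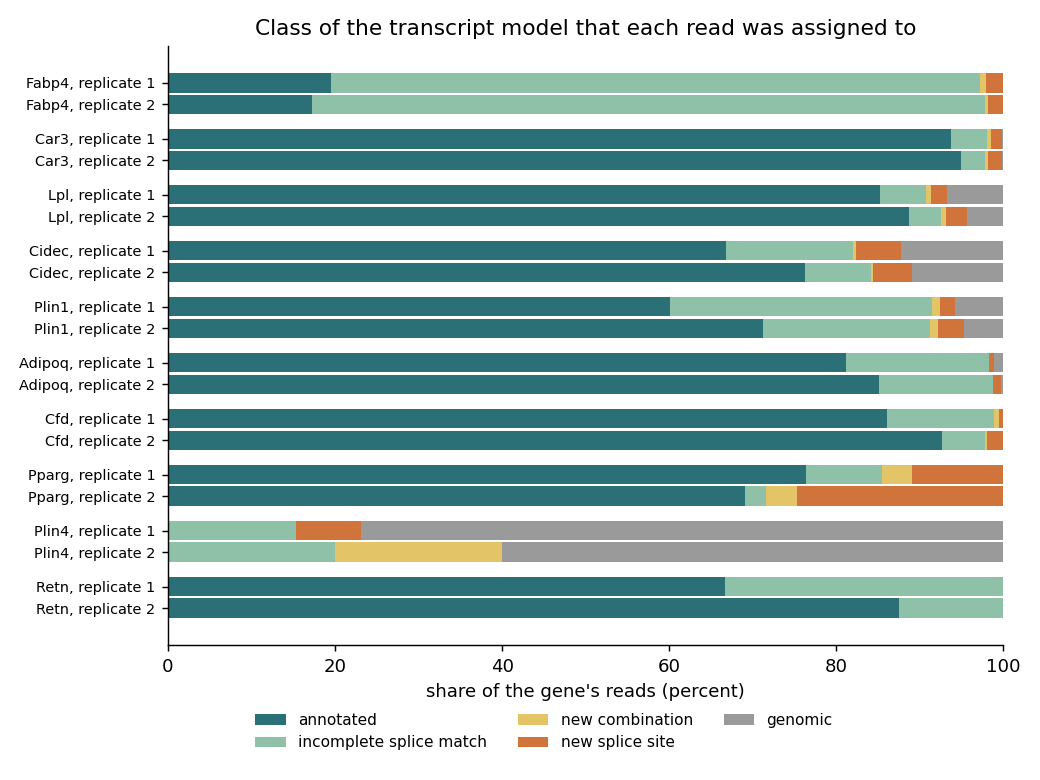
Share of each gene's reads by the class of the transcript model, in percent, with 1 bar per gene and library. Incomplete splice matches fill 77.7 and 80.6% of Fabp4, genomic models fill 76.9 and 60.0% of the 13 and 5 Plin4 reads, and models with an unannotated splice site fill 10.9 and 24.7% of Pparg.

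Adipoq (ENSMUSG00000022878.5, chromosome 16, 23146536 to 23158028, plus strand) was read as its 3-exon transcript Adipoq-201 in 147 of 181 reads in replicate 1 (81.2%) and 275 of 324 in replicate 2 (84.9%). Most of the rest lay on single-exon models, with 29 and 41 reads. Of these, 27 and 40 lay on a model of the last exon alone, which holds no intron sequence, and 2 and 1 were genomic. Retn (ENSMUSG00000012705.16, chromosome 8, 3655770 to 3660110, plus strand) had 4 of 6 and 7 of 8 reads on the 5-exon transcript Retn-201. Low as it is, resistin RNA was thus seen spliced through all 4 introns in both libraries.

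Cfd (ENSMUSG00000061780.6, chromosome 10, 79890853 to 79892655, plus strand) was split between 2 annotated transcripts. Cfd-202 held 90 reads of replicate 1 and 163 of replicate 2, and Cfd-201 had 65 and 127. They differ by 1 codon, since the acceptor of exon 2 in Cfd-202 lies 3 bases downstream of that in Cfd-201. Over all models that splice this intron, the downstream acceptor was used in 90 of 157 reads in replicate 1 (57.3%, 49.2 to 65.2) and 165 of 296 in replicate 2 (55.7%, 49.9 to 61.5). The annotation marks Cfd-202 as a tandem acceptor of the NAGNAG type. The sequences span the junction of exon 1 and exon 2 (mm10 chr10:79890957-79891482, plus strand, from GENCODE M21), with the 3 bases that the downstream acceptor leaves out in capitals.
Cfd-201: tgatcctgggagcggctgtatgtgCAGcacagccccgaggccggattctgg
Cfd-202: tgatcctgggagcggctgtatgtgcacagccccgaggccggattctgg

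Pparg (ENSMUSG00000000440.12, chromosome 6, 115360951 to 115490399, plus strand), which lies 1.93 Mb from Cidec, was read from first exons far apart. Its upstream first exons all lead to a protein of 475 codons without the stop, known as PPARγ1. The downstream first exon of Pparg-201 leads to one of 505 codons, known as PPARγ2, the form typical of fat cells. Pparg-204, from the second upstream exon, was the main transcript with 24 of 55 reads in replicate 1 (43.6%, 30.3 to 57.7) and 34 of 81 in replicate 2 (42.0%, 31.1 to 53.5). Pparg-201 had 13 and 17 reads and Pparg-202, from the first upstream exon, had 5 and 5. Over all spliced models with an identified first exon, the downstream exon was used in 13 of 50 reads in replicate 1 (26.0%, 14.6 to 40.3) and 18 of 79 in replicate 2 (22.8%, 14.1 to 33.6). The upstream exons together held 37 and 61 reads. The intervals of the libraries overlap, and at this depth a difference between them was not detectable.

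The 30 codons that only the longer form carries are shown in capitals, followed by the first 30 coding bases that both forms share (mm10 chr6:115422111-115439877 for Pparg-201, plus strand, with the intron left out).
Pparg-201: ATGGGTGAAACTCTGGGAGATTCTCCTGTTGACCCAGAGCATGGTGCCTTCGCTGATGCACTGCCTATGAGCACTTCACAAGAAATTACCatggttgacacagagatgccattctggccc
Pparg-204: atggttgacacagagatgccattctggccc

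Pparg also had the highest share of unannotated splice sites among the 10 genes, a mean of 17.8%, against a median of 1.88% over the 2162 genes, of which 40 had a higher share. In 6 of 55 reads in replicate 1 (10.9%, 4.11 to 22.2) and 17 of 81 in replicate 2 (20.99%, 12.7 to 31.5) the first intron began at 1 of 3 positions that no annotated Pparg exon ends at, on chromosome 6 after 115360868, 115361117 or 115361233. The last 2 lie inside the first exon of Pparg-202, which is annotated up to 115361370. The donor after 115361233 held 3 reads of replicate 1 and 10 of replicate 2, and that after 115361117 had 1 and 7. In the 8-exon models with these donors the rest of the chain was that of Pparg-202, with its coding start.

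**Figure D4:**
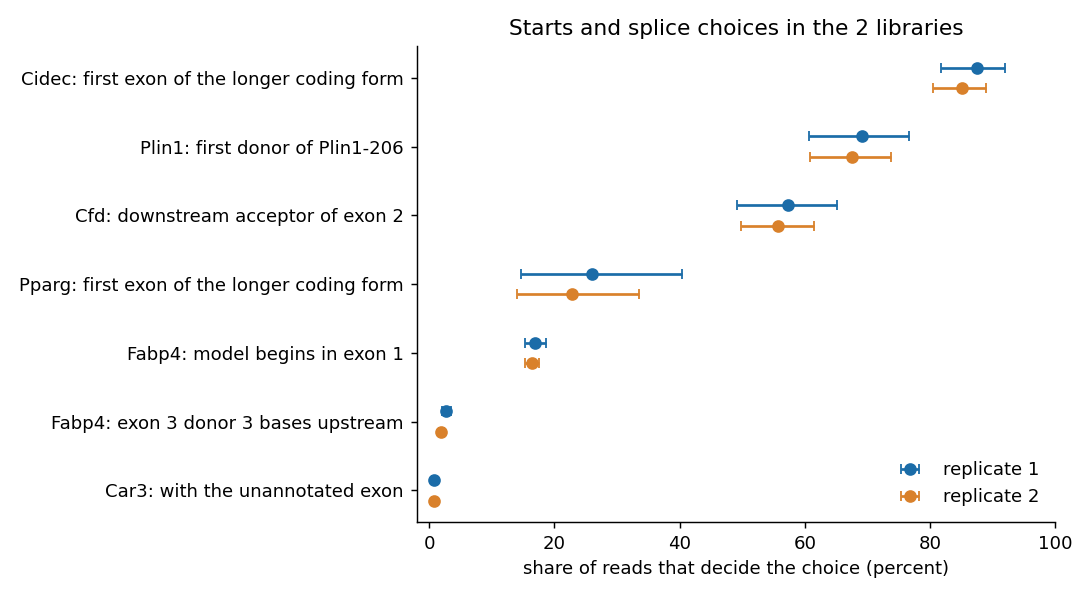
Share of reads with each start or splice choice, in percent of the reads that decide it; each point is 1 library and bars are exact 95% Clopper-Pearson intervals. The intervals of the 2 libraries overlap in every line, from the Cidec first exon at 87.5 and 85.1% to the Car3 exon at 0.70 and 0.74%.

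Promoter sequence was looked at in windows set at RefSeq starts, which need not be the annotated starts of the models above. The RefSeq table (GRCm38.p6) holds 300-base windows, from 250 bases before a start, for 7 of the 10 genes: 3 for Pparg, 2 for Cidec and 1 each for Plin1, Plin4, Adipoq, Cfd and Retn. Both strands were searched for 4 motifs that do not overlap in these windows. The TATA box was searched as TATAAA and is held by 13.6% of all 32851 windows. The second motif was CCAAT, held by 37.4%, and the GC box was searched as GGGCGG, held by 35.7%. The core element of nuclear receptors was searched as AGGTCA and is held by 16.3%. The window of the second upstream Pparg exon (mm10 chr6:115362099-115362398, plus strand) held all 4 motifs. It is set at 115362349, the start of Pparg-206, whereas Pparg-204 begins at 115362292. TATAAA (29 bases before 115362349, on the strand opposite to the gene) and AGGTCA (9 bases before, on the gene's strand) thus lie inside the first exon of Pparg-204. The window of the downstream start (chr6:115421816-115422115) held CCAAT in 2 places and none of the others. In the window of the first upstream exon the GC box and the core element were found. Both lie inside the first exon of Pparg-202 (115360951 to 115361370). That window is set at 115361144, where no annotated transcript starts. The windows of Cidec, Plin1, Cfd and Retn held none of the 4, that of Adipoq held CCAAT in 3 places and that of Plin4 in 1. A match is a run of letters and no evidence of binding. The 2 Pparg windows are shown with matches in capitals.
Second upstream start of Pparg: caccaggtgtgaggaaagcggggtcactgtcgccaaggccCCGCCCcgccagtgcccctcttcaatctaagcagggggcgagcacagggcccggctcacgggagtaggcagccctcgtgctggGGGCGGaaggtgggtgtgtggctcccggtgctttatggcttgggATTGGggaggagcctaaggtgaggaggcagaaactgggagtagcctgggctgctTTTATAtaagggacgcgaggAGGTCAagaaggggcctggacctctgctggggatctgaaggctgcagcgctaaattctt
Downstream start of Pparg: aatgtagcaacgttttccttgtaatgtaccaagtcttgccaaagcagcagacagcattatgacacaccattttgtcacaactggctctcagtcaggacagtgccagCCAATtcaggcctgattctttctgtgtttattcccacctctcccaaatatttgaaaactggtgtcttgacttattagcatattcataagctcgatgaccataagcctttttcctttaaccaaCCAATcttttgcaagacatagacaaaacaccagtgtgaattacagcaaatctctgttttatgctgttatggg

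Main transcript shares were compared between the libraries in the 8 genes with 50 or more reads in each, all but Plin4 and Retn. None of the 8 passed a two-sided Fisher's exact test at an adjusted p under 0.05 with a difference of 10 points, which 37 of 2146 genes did (1.72%). At an unadjusted p under 0.05 the Fisher test listed 1 of the 8, Car3, with a difference of -1.47 points, and 294 of the 2146 genes (13.7%). The differences, replicate 1 minus replicate 2, ran from -6.71 points for Cidec to 1.66 points for Pparg.

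Genes that act beside these 10 were described from lists. Of 14 lipolysis genes 12 were detected and 0 differed between the libraries by both criteria of the exact binomial test. Cidea, a relative of Cidec typical of brown fat, led with 3025 and 4241 CPM. It was followed by the triglyceride lipase gene Pnpla2 (733 and 833 CPM) and by the perilipin genes Plin2 (396 and 394 CPM) and Plin5 (270 and 275 CPM). Of 15 triglyceride synthesis genes 13 were detected, led by Gpd1 (1639 and 1658 CPM), which makes glycerol 3-phosphate, and by Dgat2 (961 and 1089 CPM) and Agpat2 (919 and 954 CPM), which attach fatty acids. Only Fitm1, a droplet-forming protein known from muscle, differed (35.4 and 10.4 CPM, exact test, adjusted p = 0.0454).

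Of 15 genes of fatty acid uptake and binding 14 were detected. Acsl1 (580 and 460 CPM) and Cd36 (447 and 439 CPM) did not differ by both criteria. Fabp3, the carrier typical of muscle, was higher in replicate 1 (619 and 273 CPM, exact test, adjusted p = 6.72e-20), the opposite direction to Fabp4, and Apoc2, a cofactor of lipoprotein lipase made in liver, was too (35.4 and 9.07 CPM). Of 12 muscle markers 7 were higher in replicate 1 by both criteria and 1, Myh4, was lower (8.43 and 190 CPM), and of 8 liver markers 7 were higher. Their part in these values was not tested. Of 18 regulators 17 were detected, led by Cebpb (1224 and 1698 CPM) and Cebpa (207 and 201 CPM), and only Ppara, a relative of Pparg prominent in liver and brown fat, differed (60.7 and 20.7 CPM, exact test, adjusted p = 0.00703).

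Of 20 adipokine and receptor genes 10 were detected and 11 had enough reads to be tested. Of these 11, 3 differed, all higher in replicate 1: Rbp4 (1264 and 330 CPM), C3 (282 and 59.6 CPM) and Cfb (180 and 38.9 CPM), which are also made by liver. The 8 liver markers were all at a higher CPM in replicate 1, and 7 of them differed. The adiponectin receptor genes Adipor1 (352 and 355 CPM) and Adipor2 (152 and 118 CPM) did not differ by both criteria. Itln1, Retnla and Retnlb had 0 reads in both libraries. Among 15 other carbonic anhydrases 7 were detected, with Car4 (55.6 and 97.1 CPM) and Car2 (64.1 and 66.0 CPM) highest. Car12 (0 and 14 reads) and Car15 (0 and 16 reads) were listed in replicate 2 alone, where the kidney markers were also found, and Car6 had 0 reads in both.

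**Figure D5:**
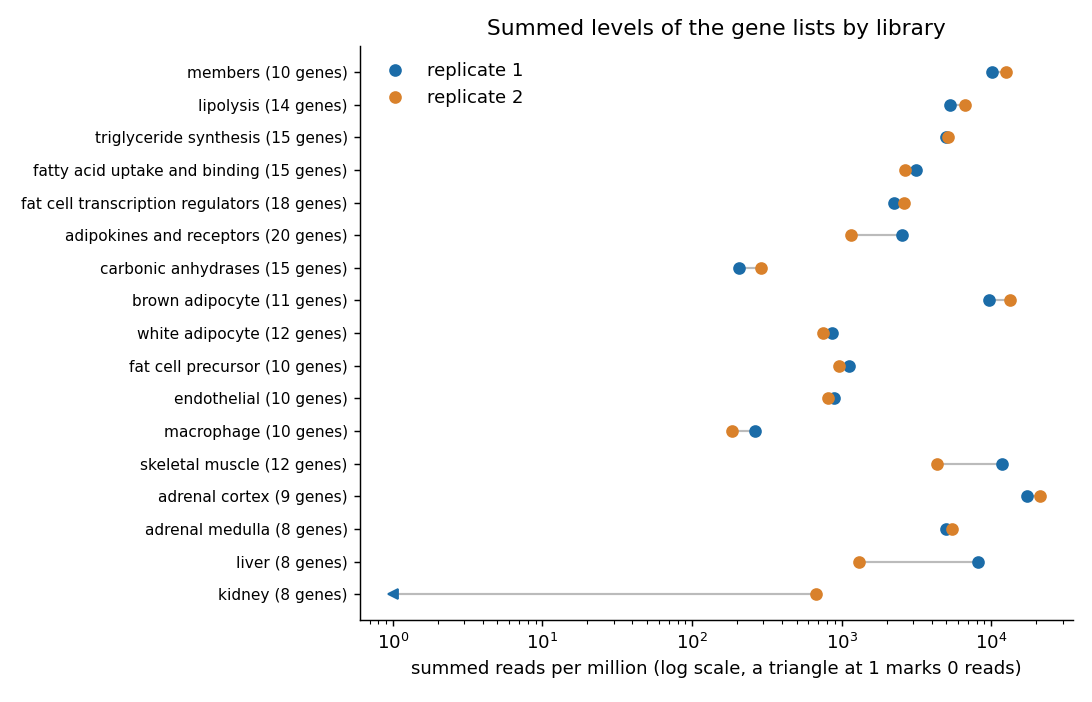
Summed CPM of the 10 genes and of each list, on a log axis, with 1 point per library joined by a line. The brown adipocyte list (9615 and 13412 CPM) lies close to the 10 genes (10100 and 12583 CPM). Both sums are lower in replicate 1, as is that of the adrenal cortex list (17258 and 21206 CPM). Within the 10 genes the largest difference is that of Fabp4 (3287 and 5793 CPM), and Car3 and Plin4 go the other way. The liver, skeletal muscle and adipokine lists have higher sums in replicate 1 and the kidney list has 0 reads there.

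Precursor, endothelial and macrophage markers were present beside the fat cell genes. Of 10 precursor markers 8 were detected, with Itgb1 (364 and 265 CPM) and Dlk1 (293 and 295 CPM) highest. All 10 endothelial markers were detected, led by Plvap (228 and 205 CPM). Of 10 macrophage markers 6 were detected, led by Lyz2 (120 and 89.4 CPM), and Fcgr1 had 0 reads. Among the white adipocyte markers, Agt was higher in replicate 1 (167 and 16.8 CPM, exact test, adjusted p = 8.86e-21). Tcf21 (27.0 and 69.9 CPM) and Hoxc8 (15.2 and 46.6 CPM) were lower there, with adjusted p of 0.0113 and 0.0289 in the exact test.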

How the data were processed

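Long-read RNA sequencing of adrenal gland gave 2 libraries of 1 group. For each the authors deposited raw counts, the number of reads on each transcript model without scaling, and an annotation with the exons of every model. Per the labels the assembly is mm10, and per the file headers and source columns the models come from TALON. The platform and aligner are not named in the sources used here. Tables list models with at least 1 read. Exons of 72 of 72 annotated transcripts of the 10 genes were identical to GENCODE M21, and classes are those of the deposited tables. Models are matched to genes as deposited, with 1 start and 1 end per model.

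Reads were summed per gene and divided by library totals without ERCC reads (2.23 and 2.09% of all reads); values on SIRV spike-ins were not analysed here. Annotated genes took 92.8 and 94.9% of reads. Identical introns paired the spliced models of one library with those of the other. Gene ratios have a pseudocount of 0.5 reads on the log2 scale and were tested by a two-sided exact binomial test with Benjamini-Hochberg adjustment over the 10567 genes with 10 or more reads summed. Main transcript shares were tested by Fisher's exact test with adjustment over the 2146 genes that have 50 or more reads in each library and a read on an annotated transcript. Intervals are exact at 95%, Poisson for levels and Clopper-Pearson for shares, and cover counting error only, since reads are not stated to carry molecular identifiers. edgeR 4.0.16 (R 4.3.3) gave TMM totals and a negative binomial exact test with the common dispersion of the 2 libraries; Python 3.11.15 and scipy 1.17.1 gave the rest. The exact binomial and Fisher tests were tested on simulated data. Members, the 6 pathway and family lists, the 10 marker lists and the tests were chosen with earlier results of these data known. Named are all 10 genes, spliced models with 5% of a gene's reads or 20 reads, and of each list at most the 5 highest genes, those that differed and those with 0 reads, except 1 gene that is not reported here. Promoter windows are from RefSeq and splice site sequences from GENCODE transcripts.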

Additional observations from a re-analysis of the deposited data

How the results depend on the processing

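With 1 group and 2 libraries, the exact binomial and Fisher p-values set the difference between the libraries against counting error alone. They hold no estimate of the spread between libraries. No paired analysis was possible because the series has a single group. The summed level of the 10 genes, 11342 CPM, was 6862 CPM with annotated models alone, since most Fabp4 reads lie on unannotated models; TMM totals, totals with ERCC reads and spliced models alone moved it by less than the SD, and the single libraries gave 10100 to 12583 CPM. The count of genes that differed, 366, was 132 with edgeR's negative binomial exact test and 717 of the 10567 without the fold minimum. It was 191 of 4757 genes with 50 or more reads summed, where 8 of the 10 genes were tested and Plin4 and Retn fell below the filter. Of the 10 genes only Fabp4, Adipoq and Cfd were among those counted, without the fold minimum. The count for main transcripts, 37, was 20 with 20 or more reads in each library, 3 with annotated models alone as the denominator and 74 without a minimum difference; of the 10 genes Fabp4 alone was among them, with annotated models alone. Under that denominator the difference in main transcript share turned to 2.08 points for Cidec, 1.26 for Plin1, 0.36 for Adipoq and 1.86 for Cfd, none past the threshold (Fisher's exact test, adjusted p = 1). The share of the downstream Pparg exon, 24.4%, was 30.7% with annotated models alone, and 22.8 to 26.0% in single libraries. The members' reads in annotated models, 61.0%, were 61.6% with models of 2 or more reads and 56.6 to 65.4% in single libraries. Plin4 and Retn, with 18 and 14 reads, allow no finer statement at this depth.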
